A study of Arabidopsis thaliana with 36 samples.

Results

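The comparison described here sets the Arabidopsis thaliana mutant brd1213 against wild type in seedlings. It was chosen by genotype label and uses 6 of the 36 RNA-seq libraries of the series, 3 from brd1213 and 3 from wild type. All 6 came from seedlings 12 days old on plates, lit for 16 h a day (23 °C) and kept dark for the other 8 h (22 °C). The labels give the mutant as brd1-/-brd2-/-brd13-/-, without the alleles or the kind of lesion, and give the controls as wild type with no other change. The mutants brip12 and brm, with 3 libraries each, serve below only where they show how brd1213 differs from its closest relatives in the series.

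BRD1, BRD2 and BRD13 encode proteins with a bromodomain, a fold that binds acetylated lysines such as those on histone tails. From knowledge of the study, they are subunits of BAS, a SWI/SNF complex built on the ATPase BRM, and BRIP1 and BRIP2 are subunits of the same complex. SWI/SNF complexes use ATP to slide or evict nucleosomes and so change access to promoters. In Arabidopsis seedlings BRM is known for its part in abscisic acid responses, hormone pathways, leaf development and the timing of flowering.

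Each of the 6 libraries held between 21844138 and 23283481 reads on genes. Levels are in CPM, reads scaled to a shared library size so that each CPM stands for about 23.1 reads, and are not corrected for gene length, so levels are compared between libraries and not between genes. Differences are log2 values, brd1213 minus wild type unless another mutant is named, with their standard error (SE) from limma over n = 3 libraries a side, and "rose" and "fell" are used of genes with an adjusted p from limma under 0.05 among the 23297 genes tested. The spread behind these p-values is estimated within genotypes over all 36 libraries of the series, not from these 6 alone. Whether libraries of 1 genotype come from separate cultures is not given in the labels, so that spread may be technical. Whole seedlings were used, so fewer cells of a type and less RNA per cell cannot be told apart.

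The mutated genes gave 3 different pictures. BRD13 (AT5G55040, chromosome 5, 22326940 to 22332078 in TAIR10.1, minus strand) was at 85.0, 76.5 and 78.2 CPM in wild type and at 0.230, 0.0418 and 0.0858 CPM in brd1213, where all 3 libraries together held 8 of its reads. The difference was -9.11 ± 0.20 (limma adjusted p = 8.89e-25). BRD2 (AT1G76380, chromosome 1, 28651069 to 28654660, minus strand) was at 15.1, 13.1 and 13.7 CPM in wild type and at 4.89, 6.88 and 7.78 CPM in brd1213, a fall of 1.12 ± 0.12 (limma adjusted p = 2.65e-08). Its level was higher in the other mutants of the complex, at 28.3 CPM on average in brip12 and 34.5 CPM in brm.

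BRD1 (AT1G20670, chromosome 1, 7164082 to 7168041, minus strand) went against the direction that a loss of transcript would give. It was at 36.3, 35.6 and 31.0 CPM in wild type and at 60.2, 76.2 and 68.9 CPM in brd1213, a difference of 0.99 ± 0.10 (limma adjusted p = 2.4e-08), and no library of either genotype overlapped the other. The deposited values are given per gene, so they do not show whether a BRD1 transcript was intact. The labels do not give the kind of lesion, so the higher level of BRD1 does not show that its label is wrong. Nor does it bear the label out, as the lower levels of BRD13 and BRD2 do for theirs. Below, brd1213 means the libraries labelled brd1213. Among 50 neighbouring genes around each locus, 18% were called at BRD1, 14% at BRD2 and 20% at BRD13, beside 19.8% of all tested genes.

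The other SWI/SNF subunits moved little. Of 24 tested, 0 rose and 2 fell, with a median difference of 0.00012. MINU2, another ATPase of the family, fell by 0.38 ± 0.08 (limma adjusted p = 0.00149). The scaffold subunit SWI3D fell by 0.30 ± 0.09 (limma adjusted p = 0.0162), a call that was lost without brd1213 library 2 or 3, without wild-type library 1 and in a fit of only the 2 genotypes. BRM itself was at 123, 129 and 112.5 CPM in wild type and at 146, 123 and 141 CPM in brd1213.

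**Figure D1:**
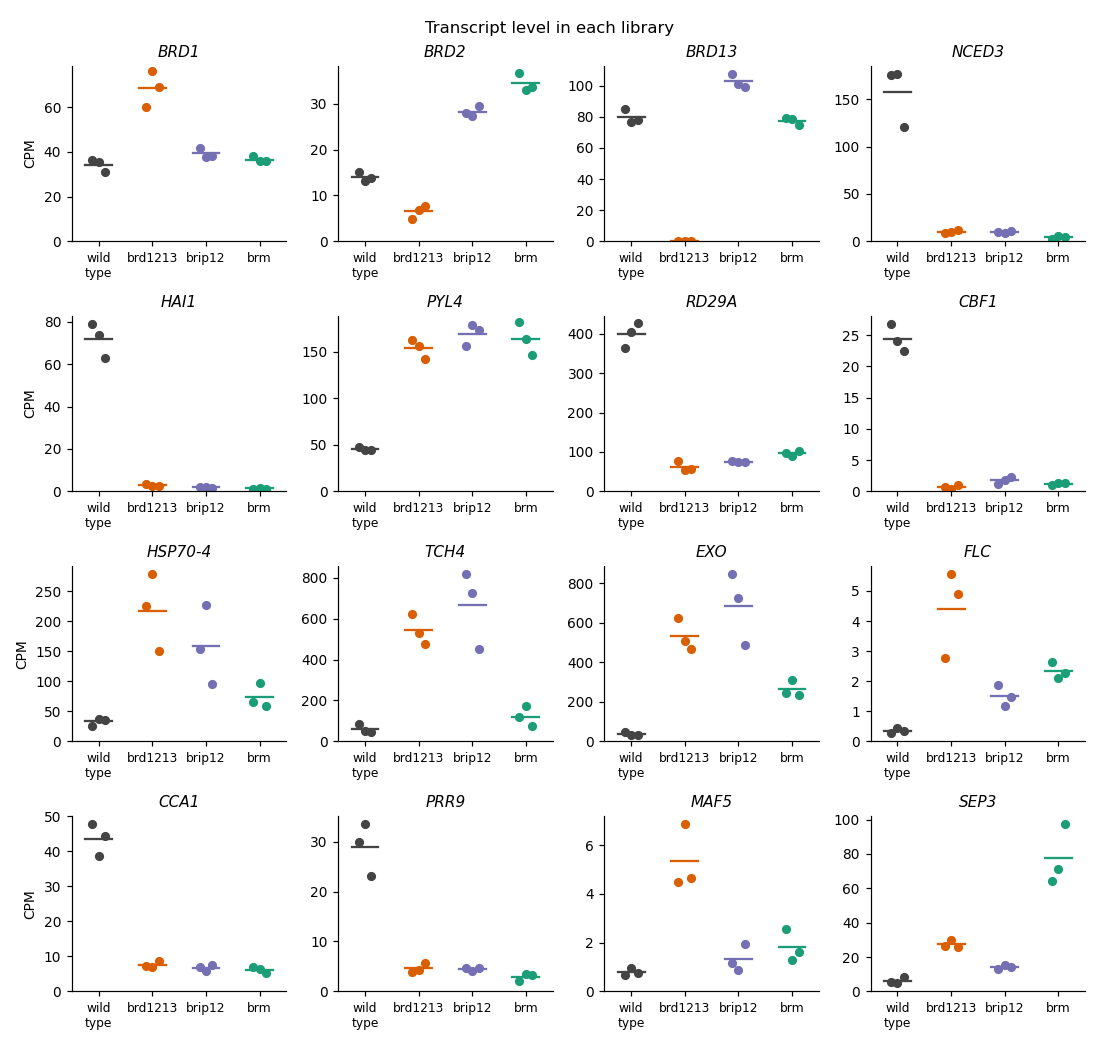
CPM (vertical axis, from 0) of 16 genes in each of the 3 libraries of wild type, brd1213, brip12 and brm; dots are libraries and bars are means. BRD13 was close to 0 only in brd1213 among the 4 genotypes drawn, while BRD1 was highest there.

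Over all tested genes, 2150 rose (9.23%) and 2471 fell (10.6%), and the median difference was 0.0078. Of these, changes of 2-fold or more were fewer: 393 rose (1.69%) and 652 fell (2.8%). All 3 brd1213 libraries lay above all 3 wild-type libraries for 3436 genes (14.7%) and below them for 3726 genes (16%). Pearson's r of log2 values over genes was 0.9801 to 0.9886 within wild type, 0.9853 to 0.9905 within brd1213 and 0.9538 to 0.9671 between them. Protein-coding genes were called more often than long non-coding RNAs: 9.51% rose and 10.9% fell of 22265 protein-coding genes, against 2.58% and 3.95% of 659 long non-coding RNAs. Calls were also rarer where levels were low: of 4327 genes with a mean under 1 CPM, 2.77% rose and 4.65% fell.

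The 15 largest rises with a symbol were led by PHI-1, EXO, FLC, TCH4, DREB26 and HSFA2, and the 15 largest falls by PUB19, CBF1, HAI2, ERF53, HAI1 and ASG4. DREB26, an AP2/ERF transcription factor, went from 9.64, 4.47 and 4.78 CPM to 56.1, 55.3 and 42.3 CPM (3.1 ± 0.26, limma adjusted p = 5.44e-10). ERF53, another factor of that family, which acts in drought responses, went from 6.75, 8.82 and 9.16 CPM to 0.190, 0.340 and 0.258 CPM (-4.78 ± 0.63, limma adjusted p = 1.6e-06). AGP17 and FLA13, arabinogalactan proteins of the cell surface, rose by 2.37 ± 0.18 and 2.26 ± 0.20. NAP, a NAC factor of leaf senescence, fell from 35.2, 42.4 and 29.6 CPM to 3.98, 3.73 and 5.504 CPM. None of the 3 brd1213 libraries overlapped wild type for any of these genes, which the naming rule required.

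**Figure D2:**
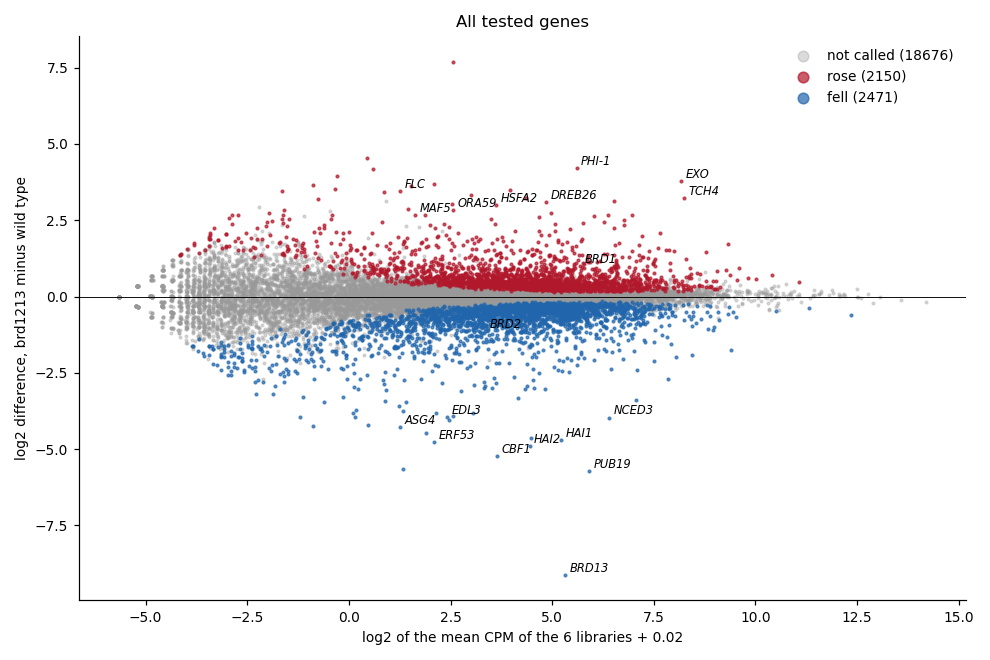
Each dot is a tested gene: log2 of its mean CPM over the 6 libraries on the horizontal axis and its log2 difference, brd1213 minus wild type, on the vertical axis. The 2150 genes that rose are red and the 2471 that fell are blue; the 8 largest named changes each way and the mutated genes are labelled, and BRD13 lies lowest of all at -9.11.

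Abscisic acid is the hormone of drought, and its response runs through a short chain. The hormone binds PYR1 and PYL receptors, which then hold clade A PP2C phosphatases, and the SnRK2 kinases freed from those phosphatases switch on ABF and related factors. Of 72 genes of this pathway, 66 were tested, with a median difference of -0.653. Of these, 8 rose and 38 fell, beside 9.23% and 10.6% of all tested genes. The 6 members under the filter on low values (NCED6, PYL10, PYL11, PYL12, PYL13 and ABI4) were not tested. The falls lay in synthesis, breakdown, phosphatases, transcription factors and response proteins, with 2 among the receptors, and 7 of the 8 rises were receptors.

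Synthesis fell at the step that is known to limit it under drought. NCED3, which cleaves carotenoids to start abscisic acid synthesis, was at 176, 177 and 120 CPM in wild type and at 8.34, 9.46 and 12.3 CPM in brd1213 (-3.96 ± 0.40, limma adjusted p = 1.48e-08). The groups were far apart, and the call held in every alternative run. Of the 8 synthesis genes tested, 3 fell and 0 rose, the others being ABA2 (-0.39 ± 0.12) and AAO3 (-0.36 ± 0.11), whose calls were lost in several alternatives. BGLU18, which frees abscisic acid from its glucose ester, fell from 190, 507 and 388 CPM to 135, 68.4 and 156 CPM (-1.56 ± 0.38), a call lost in the fit of only the 2 genotypes. Of the hydroxylases that break the hormone down, CYP707A1, CYP707A2 and CYP707A4 were called lower by 0.56, 0.56 and 1.3. Their calls were lost in 6, 10 and 3 of 15 alternatives, for each gene also without at least 1 library. CYP707A3, of the same family, was not called.

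The receptors moved the other way. Of 10 tested, 7 rose and 2 fell, with a median of 0.585, and their summed level went from 230 to 247 CPM in wild-type libraries to 439 to 472 CPM in brd1213. PYL4 was at 47.5, 43.9 and 44.8 CPM in wild type and at 163, 156 and 142 CPM in brd1213 (1.76 ± 0.19, limma adjusted p = 3.93e-08). PYL5 was at 16.9, 12.9 and 16.5 CPM and at 55.0, 59.0 and 52.2 CPM (1.85 ± 0.21, limma adjusted p = 1.97e-07). For both genes every brd1213 library was above every wild-type library, and PYL4 averaged 169 CPM in brip12 and 164 CPM in brm. PYL1, PYL8 and PYR1 rose by 0.76, 0.57 and 0.53, and PYL6 and PYL2 by 1.15 and 0.56 with calls lost without some libraries. PYL7 and PYL9 fell, by 0.94 ± 0.19 and 0.45 ± 0.11, so the family did not move as a whole.

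The clade A phosphatases, which block the pathway, fell in 7 of 9 cases and rose in 0, with a median of -1.54. HAI1 was at 78.8, 73.7 and 63.0 CPM in wild type and at 3.22, 2.46 and 2.58 CPM in brd1213 (-4.69 ± 0.40, limma adjusted p = 7.71e-10). HAI2 was at 38.7, 55.4 and 32.2 CPM and at 1.54, 1.02 and 1.55 CPM (-4.89 ± 0.49, limma adjusted p = 1.73e-08). PP2CA fell from 228, 246 and 212 CPM to 42.1, 40.7 and 46.9 CPM. No brd1213 library reached the lowest wild-type library for these 3 genes. ABI1, ABI2, HAB1 and HAB2 fell by 1.79, 1.54, 1.41 and 0.73, while HAI3 (-0.32 ± 0.64) and AHG1 (0.79 ± 0.46) were not called. The 7 calls held in every alternative run. Of the SnRK2 kinases, which carry the signal on, SNRK2.2 rose by 0.23 ± 0.07 with its call lost in 4 alternatives, and SNRK2.3 and SNRK2.6 were not called.

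Downstream of the kinases, 7 of 11 transcription factors fell and 0 rose. RD26 and NAC019, NAC factors of drought and abscisic acid responses, fell by 2.02 ± 0.29 and 3.0 ± 0.49. ATHB12, a homeodomain-leucine zipper factor, went from 38.4, 42.8 and 40.02 CPM to 4.84, 6.15 and 7.27 CPM (-2.74 ± 0.31, limma adjusted p = 1.63e-07), and its relative ATHB7 fell by 1.41 ± 0.21. The bZIP factors ABF2, ABF3 and ABF4, which bind abscisic acid response elements, fell by 1.4, 0.77 and 0.58. ABI5, a bZIP factor of germination, did not pass the test (0.06 ± 0.25).

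Of 19 response proteins, 15 fell and 0 rose, with a median of -1.74. PUB19, a U-box ubiquitin ligase, had the largest fall of all named genes apart from BRD13: 125, 119 and 106 CPM in wild type against 2.70, 1.52 and 2.54 CPM in brd1213 (-5.71 ± 0.61, limma adjusted p = 4.21e-08). RD29A, a desiccation-responsive protein, went from 364, 406 and 427 CPM to 76.0, 53.9 and 57.9 CPM (-2.69 ± 0.29, limma adjusted p = 5.31e-08). P5CS1, the enzyme that commits glutamate to proline, went from 543, 619 and 476 CPM to 147, 124 and 168 CPM (-1.90 ± 0.31). All brd1213 libraries lay below all wild-type libraries for these 3 genes. RD20, GOLS2, AFP1 and ERD10 fell by 3.04, 2.44, 2.36 and 1.74. RAB18, RD22, GOLS1 and XERO1 were not called, so several known response genes did not change past the threshold.

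**Figure D3:**
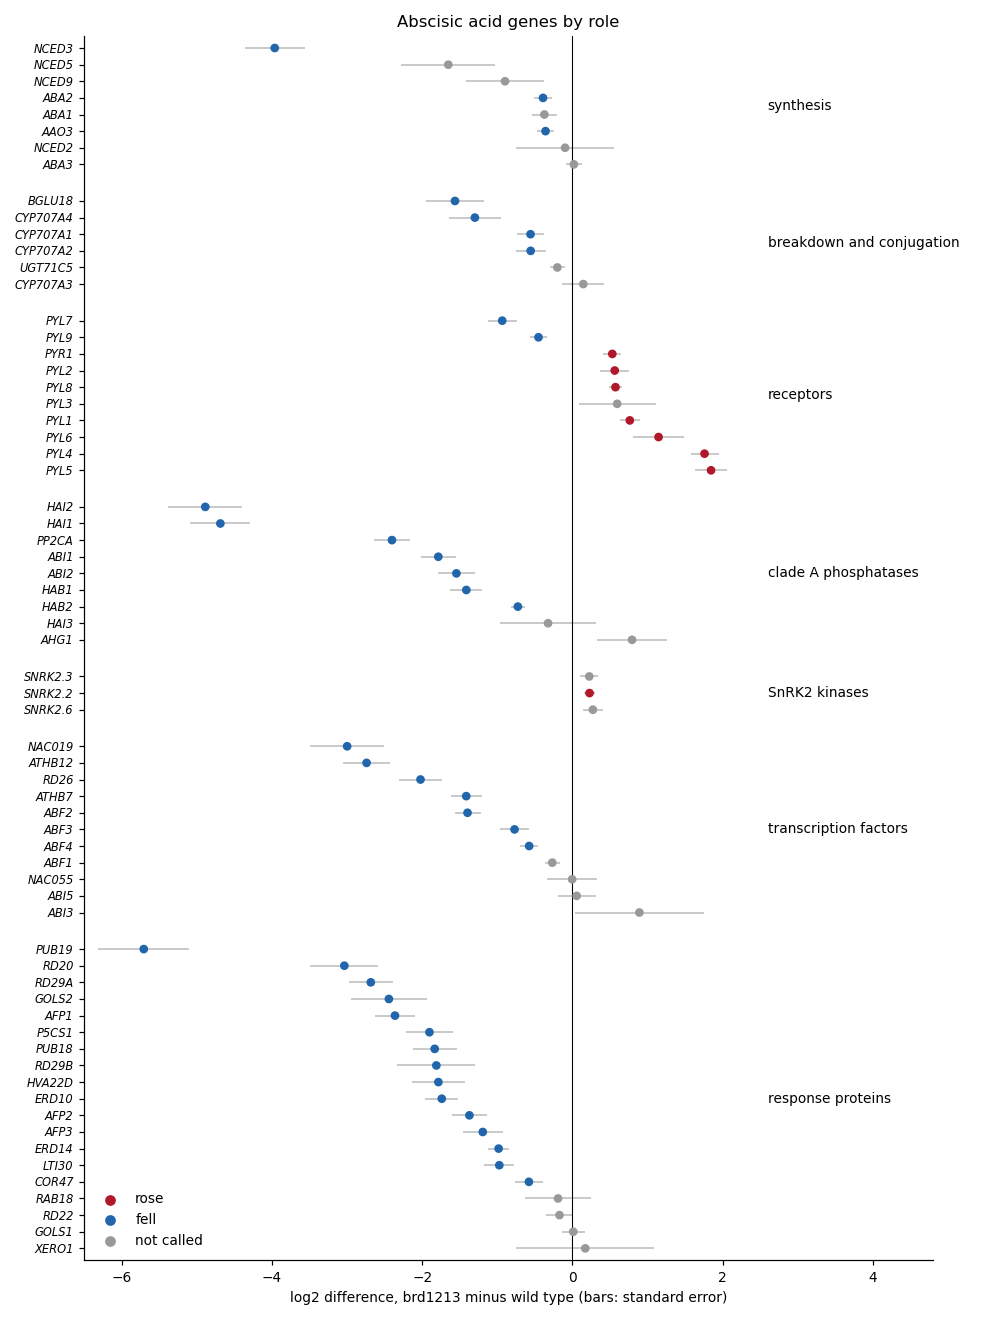
Log2 difference, brd1213 minus wild type, of each of the 66 tested abscisic acid genes, grouped by role; dots are colored by call and bars are standard errors. Phosphatases and response proteins lie mostly left of 0, down to -5.71 for PUB19, and 8 of 10 receptors lie right of it, 7 of them called.

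The bases before the start of 7 changed genes are shown because they hold letters that known regulators of these pathways bind; they were chosen after the matches were seen. Each run is the 250 bases before the RefSeq gene start in TAIR10.1, written 5' to 3' on the gene's strand. In HAI2, NAC019, PUB19 and RD20, capitals mark the abscisic acid response element (ABRE) cores ACGTGT and ACGTGG. In RD29A they mark the C-repeat core CCGAC, which CBF factors bind, in HSFA2 the heat shock element core GAANNTTC, and in LUX the evening element AAAATATCT. Both strands were searched, and the ABRE cores overlap each other and the G-box CACGTG.
HAI2 (chr1:2282829-2283078, minus strand): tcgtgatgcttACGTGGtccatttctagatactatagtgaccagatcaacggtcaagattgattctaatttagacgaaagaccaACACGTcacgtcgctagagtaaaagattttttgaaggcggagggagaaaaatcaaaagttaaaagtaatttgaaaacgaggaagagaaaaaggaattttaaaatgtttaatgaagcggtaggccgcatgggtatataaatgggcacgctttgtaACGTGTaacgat
NAC019 (chr1:19698483-19698732, minus strand): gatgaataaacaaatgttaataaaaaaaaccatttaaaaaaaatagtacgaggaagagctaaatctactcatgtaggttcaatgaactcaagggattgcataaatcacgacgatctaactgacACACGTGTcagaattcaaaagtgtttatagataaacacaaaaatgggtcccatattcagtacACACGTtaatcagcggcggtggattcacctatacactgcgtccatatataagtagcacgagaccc
PUB19 (chr1:22198016-22198265, plus strand): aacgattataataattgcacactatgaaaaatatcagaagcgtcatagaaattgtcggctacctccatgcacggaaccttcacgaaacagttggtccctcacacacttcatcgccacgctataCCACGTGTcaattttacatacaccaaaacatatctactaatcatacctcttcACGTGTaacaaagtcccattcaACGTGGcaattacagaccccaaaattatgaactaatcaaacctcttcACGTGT
RD20 (chr2:14146556-14146805, minus strand): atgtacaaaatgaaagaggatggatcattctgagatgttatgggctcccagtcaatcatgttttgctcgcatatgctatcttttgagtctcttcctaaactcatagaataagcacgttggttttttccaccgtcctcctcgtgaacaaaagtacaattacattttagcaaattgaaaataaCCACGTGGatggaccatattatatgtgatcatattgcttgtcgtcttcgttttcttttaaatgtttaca
RD29A (chr5:21240467-21240716, plus strand): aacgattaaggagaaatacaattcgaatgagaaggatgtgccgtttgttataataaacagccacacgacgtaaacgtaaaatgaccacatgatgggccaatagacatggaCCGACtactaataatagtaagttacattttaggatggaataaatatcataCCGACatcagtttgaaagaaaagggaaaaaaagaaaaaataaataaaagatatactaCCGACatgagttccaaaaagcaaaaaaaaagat
HSFA2 (chr2:11135374-11135623, plus strand): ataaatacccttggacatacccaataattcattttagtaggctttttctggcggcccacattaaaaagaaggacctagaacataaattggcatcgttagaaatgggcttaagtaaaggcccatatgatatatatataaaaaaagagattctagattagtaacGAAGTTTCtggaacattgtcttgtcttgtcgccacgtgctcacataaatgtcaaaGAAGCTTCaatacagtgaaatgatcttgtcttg
LUX (chr3:17182792-17183041, plus strand): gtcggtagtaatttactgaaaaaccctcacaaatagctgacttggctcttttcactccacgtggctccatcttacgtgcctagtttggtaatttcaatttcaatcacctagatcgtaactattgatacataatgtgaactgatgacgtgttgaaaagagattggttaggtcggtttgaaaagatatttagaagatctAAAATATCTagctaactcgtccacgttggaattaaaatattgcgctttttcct

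Over all genes that fell at least 2-fold, the ABRE cores were more frequent in these windows than over all genes. Either core stood in 195 of 652 windows (29.9%), against 71 of 393 (18.1%) for genes that rose at least 2-fold and 3944 of 23296 (16.9%) for all tested genes with a window. The G-box stood in 14.7% of the fallen, 5.85% of the risen and 7.13% of all. The brassinosteroid response element CGTGTG stood in 9.05%, 5.09% and 5.57% in the same order, and the CAMTA core CGCGT in 12.3%, 8.14% and 7.38%. CGTGTG can overlap the ABRE core ACGTGT, so their matches are not separate. The C-repeat core stood in 14.9%, 10.2% and 12.5%. With all called genes in place of those changed at least 2-fold, either ABRE core stood in 24.1% of the fallen and 14.5% of the risen. These shares are descriptions without a test, and a match is not a site.

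Among the abscisic acid genes, either ABRE core stood before 19 of 38 that fell, 0 of 8 that rose and 11 of 20 that were not called. It was thus as frequent in members that were not called as in those that fell. The heat shock element core stood before 5 of 20 heat shock genes that rose and 3 of 11 that were not called, against 9.38% of all windows. The evening element stood before 3 of 6 clock genes that rose and 0 of 10 that fell, against 2.4% of all.

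**Figure D4:**
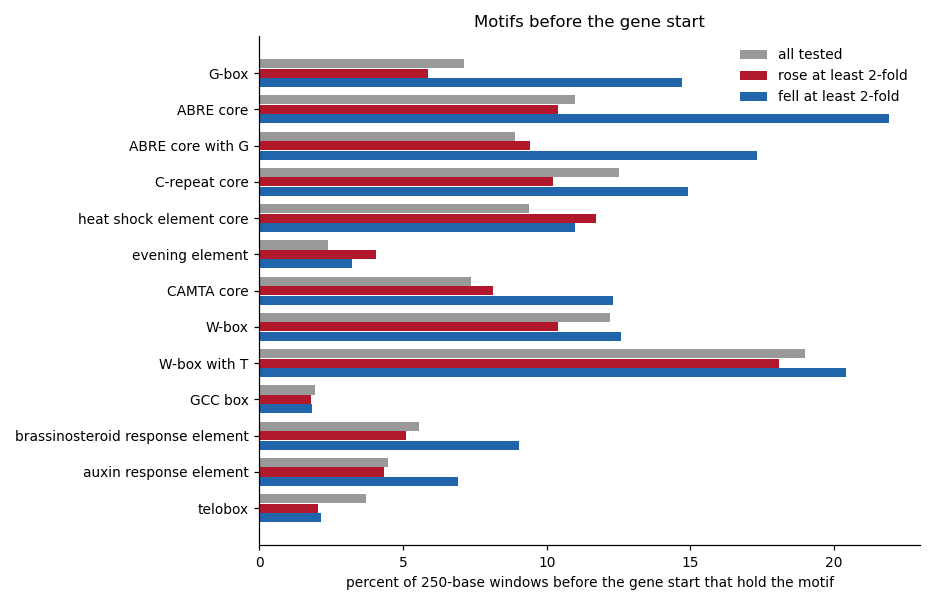
Percent of 250-base windows before gene starts that hold each of 13 motifs on either strand (horizontal axis, from 0), for all tested genes (gray), genes that rose at least 2-fold (red) and genes that fell at least 2-fold (blue). The blue bars of the ABRE cores, at 21.9% and 17.3%, exceed the gray ones, at 11% and 8.9%.

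The cold pathway fell at its regulators. CBF factors, which are induced by chilling and switch on COR genes, showed this most clearly: CBF1 went from 26.7, 24.0 and 22.5 CPM to 0.611, 0.337 and 1.08 CPM (-5.22 ± 0.47, limma adjusted p = 2.4e-09). DREB1A and CBF2, the neighbors of CBF1 on chromosome 4, fell by 3.81 ± 0.45 and 3.31 ± 0.46. These 3 genes are closely related in sequence, so some reads may have been shared among them by the counting. Their relatives DDF1, DDF2 and CBF4 were also called lower, but wild-type library 1 held 11.6 CPM of DDF1 against 1.24 and 1.90 CPM in the others, and the calls of DDF1 and DDF2 were lost without it. In all, 8 of 20 cold genes fell and 1, the repressor RAV1 (0.87 ± 0.16), rose, beside 10.6% and 9.23% of all tested genes. Of the 8 CBF targets in the cold list only COR15A (-1.25 ± 0.33) and COR413PM1 (-0.50 ± 0.16, lost without 3 of the 6 libraries in turn) fell. That list does not hold every gene with a C-repeat core. RD29A, which fell, is counted above among the abscisic acid genes.

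Of 19 early touch and wound genes, 1 rose and 3 fell, a share near the 19.8% called among all tested genes. FBS1, an F-box protein of stress responses, fell from 48.1, 30.5 and 47.1 CPM to 5.51, 4.71 and 5.07 CPM (-3.0 ± 0.42, limma adjusted p = 3.83e-06). ERF104 rose by 1.0 ± 0.24. The other 2 falls, ERF109 and CML37, were lost without wild-type library 1, in which ERF109 was at 9.15 CPM against 0.696 and 0.730 CPM.

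Heat shock genes rose in plants grown at 23 °C. These chaperones refold or hold proteins, and the HSF factors that switch them on are normally quiet without heat. Of 32 tested, 20 rose and 1 fell, beside 9.23% and 10.6% of all tested genes, and their median was 1.41. Among the large chaperones, 9 of 10 rose: HSP70-4 went from 26.2, 37.8 and 35.97 CPM to 225, 279 and 150 CPM (2.68 ± 0.24, limma adjusted p = 1.38e-09), and HSP90.1 from 13.8, 21.8 and 17.63 CPM to 119, 154 and 69.2 CPM (2.63 ± 0.28). HSP101, the disaggregase of heat tolerance, rose by 2.15 ± 0.23, and the co-chaperones HOP3 and ROF2 by 2.13 ± 0.21 and 2.41 ± 0.21. Every brd1213 library was above every wild-type library for each of these.

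Among the regulators, HSFA2, which sustains the heat response, went from 2.38, 2.12 and 3.14 CPM to 17.1, 33.7 and 15.1 CPM (3.01 ± 0.34, limma adjusted p = 1.07e-07). HSFA7A, HSFA3 and HSFB2B rose by 1.51, 0.93 and 0.63, and the coactivator MBF1C by 1.71 ± 0.20. HSFA1B, a factor present without heat, was called lower (-0.38 ± 0.10), with overlapping libraries. The small heat shock proteins rose in 5 of 10 cases from very low levels: HSP17.6A was at 0.0894, 0.0454 and 0.0379 CPM in wild type and at 1.24, 4.68 and 1.93 CPM in brd1213.

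brd1213 library 2 was highest for HSFA2, HSP70-4, HSP90.1 and HSP17.6A, and the same library held the most seed storage transcript. Library 2 was also the highest in wild type for HSP70-4 and HSP90.1, though not for HSFA2 or HSP17.6A. For HSP70-4 it was the highest in brip12 and brm as well. The summed level of the 10 seed storage and oil body markers ran from 0.992 to 1.58 CPM in wild type and from 2.85 to 29.4 CPM in brd1213, where CRA1, a cruciferin, was at 1.4, 10.9 and 1.76 CPM, and 0 of the 10 markers were called. Without brd1213 library 2, 18 heat shock genes rose and 1 fell. The part of seed transcripts in the heat shock result was not tested.

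Wall-loosening genes split by family. XTH enzymes cut and rejoin xyloglucan, EXORDIUM proteins are known for promoting growth under brassinosteroid, and alpha expansins loosen walls without cutting them. Of 30 XTH genes tested, 14 rose and 1 fell, and of 7 EXORDIUM genes 5 rose and 0 fell. Of 19 alpha expansins 0 rose and 5 fell, while of all tested genes 9.23% rose and 10.6% fell. TCH4 (XTH22), an enzyme induced by touch and brassinosteroid, went from 82.7, 50.6 and 46.4 CPM to 621, 532 and 477 CPM (3.22 ± 0.37, limma adjusted p = 1.84e-07). XTH15 went from 19.7, 21.5 and 26.7 CPM to 156, 147 and 126 CPM (2.66 ± 0.20, limma adjusted p = 1.34e-10), and XTH16 rose by 2.03 ± 0.21. XTH23, XTH24, XTH27, XTH33 and XTH9 rose by 1.67, 1.58, 1.29, 1.89 and 1.18.

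In the EXORDIUM family, EXO went from 48.6, 34.3 and 33.9 CPM to 626, 507 and 466 CPM (3.78 ± 0.28, limma adjusted p = 1.12e-10). PHI-1 went from 9.63, 3.88 and 2.97 CPM to 105, 92.6 and 76.5 CPM (4.22 ± 0.40, limma adjusted p = 5.94e-09). For both, each brd1213 library was well above each wild-type library. EXL5 rose by 2.34 ± 0.21. The expansins EXPA11 and EXPA5 fell by 1.18 ± 0.19 and 1.14 ± 0.20, and EXPA6 by 0.54 ± 0.08. EXPA14 and EXPA3 were called lower by 0.86 ± 0.26 and 0.46 ± 0.14, and each call was lost in 4 alternatives.

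Of 17 genes of the brassinosteroid pathway itself, 5 rose and 3 fell, with a median of -0.0726, beside 9.23% and 10.6% called of all tested genes. The counts were 3 and 2 without brd1213 library 1, 5 and 1 without brd1213 library 3, and 3 and 4 without wild-type library 3. The synthesis enzyme BR6OX2 rose by 0.69 ± 0.11 and the kinase BIN2, which blocks signalling, by 0.46 ± 0.07. IBH1, a bHLH repressor of growth, fell by 0.95 ± 0.15. The receptor BRI1 was called higher (0.42 ± 0.11) with overlapping libraries.

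Clock genes moved in opposite directions by the time of day at which they peak. The morning genes CCA1 and LHY repress evening genes, and the evening complex represses morning ones. Of 14 morning genes, 10 fell and 1 rose, with a median of -0.842. Of 14 evening genes, 5 rose and 0 fell, with a median of 0.294. The shares over all tested genes were 9.23% risen and 10.6% fallen. CCA1 went from 47.9, 38.6 and 44.3 CPM to 7.35, 7.08 and 8.55 CPM (-2.50 ± 0.24, limma adjusted p = 9.44e-09). PRR9, a pseudo-response regulator, went from 29.97, 33.5 and 23.1 CPM to 3.94, 4.20 and 5.76 CPM (-2.63 ± 0.25, limma adjusted p = 4.96e-09). The groups did not overlap for either.

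LNK3, LHY and RVE8, other morning genes, fell by 2.2, 1.81 and 1.67, while RVE7 rose by 0.71 ± 0.21 and lost its call without wild-type library 1 or 3. Among the evening genes, LUX and ELF3, members of the evening complex, rose by 0.62 ± 0.10 and 0.49 ± 0.10, and COR27 and PRR3 by 0.89 ± 0.23 and 0.58 ± 0.13. The labels do not give the hour of harvest for each library, so a difference in clock phase and a difference in level cannot be told apart.

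Jasmonate genes fell in 18 of 38 cases and rose in 2, beside 10.6% and 9.23% of all tested genes. Their median was -0.473. LOX4 and LOX3, lipoxygenases of jasmonate synthesis, fell by 2.11 ± 0.40 and 1.63 ± 0.28, and JAZ1, a repressor that the hormone destroys and induces, went from 156, 90.8 and 124 CPM to 45.3, 28.7 and 32.1 CPM (-1.80 ± 0.32, limma adjusted p = 0.000114). Wild-type library 1 was highest for several of them: LOX3 was at 108, 49.0 and 56.0 CPM and JAZ5 at 18.6, 5.38 and 7.47 CPM in wild type. The number that fell was 12 without that library, 11 without brd1213 library 2 and 8 in the fit of only the 2 genotypes. ORA59, an ERF factor where jasmonate and ethylene meet, rose from 1.35, 1.17 and 1.69 CPM to 9.04, 10.5 and 11.5 CPM (2.85 ± 0.28, limma adjusted p = 1.02e-08). MYC2 was under the filter on low values and is not described.

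Of 24 salicylic acid genes tested, 6 fell and 1 rose, beside 10.6% and 9.23% of all tested genes. These calls all lay among the 13 synthesis genes and regulators, whose median was -0.277. Of 11 outputs 0 were called, though their median was lower, at -0.528. The summed level of the outputs ran from 78.5 to 207 CPM in wild-type libraries. SARD1, a factor that induces synthesis of the hormone, fell by 2.0 ± 0.34. PAD4, a defence regulator, went from 24.2, 24.98 and 24.4 CPM to 12.9, 11.1 and 13.5 CPM (-0.97 ± 0.14), and ICS1, the main synthesis enzyme, fell by 0.76 ± 0.11. These 3 kept their calls in every alternative run, while the other 3 falls lost theirs, ALD1 in 9 alternatives, NPR1 in 4 and EDS5 in 1.

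Glucosinolates are sulphur-rich defence compounds of the cabbage family, made from methionine (aliphatic) or tryptophan (indole). Of 36 pathway genes tested, 17 fell and 1 rose, beside 10.6% and 9.23% of all tested genes, and their median was -0.326. The aliphatic factor MYB29 went from 12.1, 13.3 and 12.0 CPM to 4.82, 4.96 and 5.46 CPM (-1.29 ± 0.21, limma adjusted p = 5e-05). Enzymes of chain elongation and of the core fell with it: BCAT4 by 0.83 ± 0.12, CYP79F1 by 1.14 ± 0.23 and CYP83A1 by 0.62 ± 0.10. Of 13 indole and camalexin genes 2 fell and 11 were not called, a share near that of all tested genes. The indole factor MYB34 was among the falls, by 1.15 ± 0.17. AOP3, the 1 pathway gene that rose, was at 0.0942, 0.1275 and 0.0859 CPM in brd1213, and its call was lost in 10 alternatives.

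Of 22 flavonoid genes, 6 fell and 2 rose, beside 10.6% and 9.23% of all tested genes. DFR, a late anthocyanin enzyme, fell from 11.2, 8.55 and 3.11 CPM to 1.27, 2.25 and 0.815 CPM (-2.29 ± 0.53, limma adjusted p = 0.00219). Its call held in every alternative run, whereas each of the other 7 calls was lost in at least 1. The number that fell was 3 without brd1213 library 1 or wild-type library 2, and 0 rose without wild-type library 3 and 1 without any 1 brd1213 library or wild-type library 2.

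Flowering repressors and activators each moved in both directions, while 3 of 10 floral organ genes rose and 0 fell. FLC, the MADS-box repressor that cold silences, went from 0.271, 0.449 and 0.351 CPM to 2.79, 5.57 and 4.90 CPM (3.44 ± 0.52, limma adjusted p = 1.06e-05), and its relative MAF5 from 0.676, 0.943 and 0.741 CPM to 4.50, 6.88 and 4.64 CPM (2.68 ± 0.41). Whether the counting used strand is not given, so FLC reads may include antisense transcripts. TEM1 and TEM2, repressors of the florigen gene, rose by 1.22 ± 0.15 and 1.36 ± 0.18. The repressors TOE1, SNZ and SVP fell, by 1.19 ± 0.10, 1.3 ± 0.29 and 0.51 ± 0.12.

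Of 7 activators, SPL4 rose by 1.53 ± 0.28, CO was called higher with its call lost in 7 alternatives, and AGL24 fell by 1.69 ± 0.38. SEP3, a floral organ gene, went from 5.71, 4.69 and 8.44 CPM to 26.2, 30.01 and 26.1 CPM (2.16 ± 0.26, limma adjusted p = 2.64e-07). In all, 9 of 30 flowering genes rose and 4 fell, beside 9.23% and 10.6% of all tested genes.

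**Figure D5:**
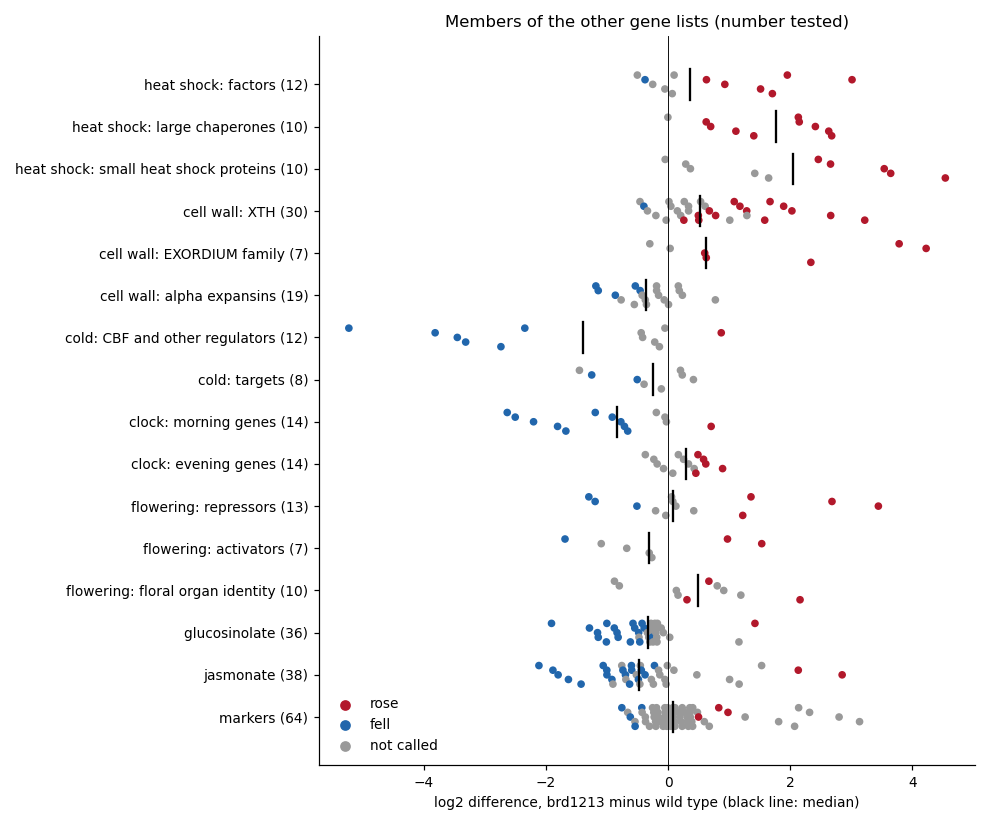
Log2 difference, brd1213 minus wild type (horizontal axis), of the tested members of other gene lists, with the number tested in brackets; dots are genes colored by call and black lines are medians. Of the large chaperones 9 of 10 lie right of 0, and CBF regulators and morning clock genes mostly left of it. The 64 cell type markers, drawn as 1 row, run from -0.756 to 3.14 with a median of 0.0817.

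Among developmental regulators, 9 of 36 rose and 4 fell, or 2 without wild-type library 1. Of all tested genes 9.23% rose and 10.6% fell, so the falls were near that share. HEC1, a bHLH factor of the style and stigma, went from 4.40, 3.42 and 3.67 CPM to 21.1, 21.4 and 18.1 CPM (2.39 ± 0.22, limma adjusted p = 2.8e-09), and its partner SPT rose by 0.83 ± 0.12. The leaf polarity factors KAN1 (abaxial) and PHV (adaxial) rose by 0.96 ± 0.13 and 0.86 ± 0.10. GRF2 and GRF1, growth factors of leaf cells, rose by 0.77 ± 0.11 and 0.55 ± 0.11. NGA3 fell by 1.29 ± 0.26 and its relative NGA1 rose by 0.90 ± 0.17.

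Among other hormones, 12 of 54 auxin genes rose and 6 fell, beside 9.23% and 10.6% of all tested genes. The auxin counts were 7 and 8 without brd1213 library 1, 8 and 7 without wild-type library 3, and 6 and 4 in the fit of only the 2 genotypes, so rises did not outnumber falls throughout. The synthesis enzymes YUC5, YUC8 and TAA1 rose by 1.57 ± 0.21, 1.21 ± 0.16 and 0.63 ± 0.14, the conjugating enzyme GH3.3 rose by 0.93 ± 0.19, and the repressor IAA5 fell by 0.90 ± 0.22. Of 16 ethylene genes, 8 rose and 2 fell: the synthases ACS11 and ACS7 rose by 1.90 ± 0.31 and 1.58 ± 0.38 and ACS5 fell by 1.64 ± 0.36. The ethylene receptor ETR2, the kinase CTR1 and the F-box protein EBF2, which all restrain the pathway, rose by 0.93, 0.78 and 0.87. Of 16 gibberellin genes 3 rose and 1 fell, and of 23 iron and phosphate genes 2 rose and 4 fell, shares near the 19.8% called among all tested genes. GA20OX2, a gibberellin synthesis enzyme, rose by 1.07 ± 0.20, and FER1, the iron store ferritin, fell by 1.27 ± 0.31. Of the iron and phosphate genes, 0 rose without brd1213 library 1 or 3 or wild-type library 2 or 3, and 1 rose without either of the others.

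Markers of cell types showed few calls. Of 64 markers, 3 rose and 4 fell, below the 9.23% and 10.6% of all genes in both directions. The summed level of the 18 leaf photosynthesis markers ran from 78400 to 115000 CPM in wild type and from 95800 to 98700 CPM in brd1213, and only LHCB1.1 of these was called (-0.62 ± 0.19). Of 8 root hair markers 1 rose, COW1, and their sums were 94.9 to 150 CPM and 125 to 228 CPM. The differences of these 8 markers all lay above 0, from 0.0791 to 0.5, with a median of 0.353. Each of the 7 marker calls was lost in at least 3 alternatives: 0 rose without wild-type library 1 and 5 without brd1213 library 3, and 1 fell without brd1213 library 1 or 3 and 2 without wild-type library 2 or 3. The part of tissue make-up in the results above was not tested.

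Set directly against brip12, brd1213 differed in few genes: 401 were higher (1.72%) and 311 lower (1.33%) of 23297, together 3.06%. None of the 66 abscisic acid genes, 28 clock genes or 20 cold genes passed the test between these mutants, with median differences of -0.0387, -0.0448 and -0.073. For NCED3 the difference was 0.01 ± 0.40 and for HAI1 0.47 ± 0.40. A missed threshold does not show that the mutants are alike, and these SEs leave room for moderate differences. Single libraries moved these counts: 510 were higher and 693 lower without brd1213 library 1, 161 and 73 without brd1213 library 2, and 196 and 102 without brd1213 library 3. Without brip12 library 1 the counts were 180 and 101, and without brip12 library 3 they were 178 and 94.

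The genes that did differ included a flowering gene. MAF5 was higher in brd1213 than in brip12, where it averaged 1.33 ± 0.56 CPM (SD), by 2.02 ± 0.41 (limma adjusted p = 0.00504), a call lost at a pseudocount of 0.1. SEP3, at 14.1 CPM in brip12, was higher by 0.96 (limma adjusted p = 0.0356). The thioredoxin TH8 was at 1.54 ± 0.55 CPM in brip12 and higher in brd1213 by 2.24 ± 0.22 (limma adjusted p = 1.65e-07). It was at 6.34, 8.00 and 5.85 CPM in wild type and 6.56, 7.85 and 6.92 CPM in brd1213, which overlap. The inhibitor KTI1 and the synthase GolS4 were higher by 1.59 ± 0.30 and 1.52 ± 0.28.

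Lower in brd1213 than in brip12 were NAP, by 1.59 ± 0.25 (limma adjusted p = 0.000227), MIOX2, an inositol oxygenase, by 1.58 ± 0.16 (limma adjusted p = 2.87e-07), and XTH15, by 0.91 ± 0.20 (limma adjusted p = 0.0109). BGLU34, BGLU35 and MLP-300B, of the myrosinase system or its relatives, were called lower too, but brd1213 library 1 stood apart for them. BGLU34 was at 8.97, 0.880 and 1.84 CPM in brd1213 and at 1.68, 8.73 and 2.35 CPM in wild type. The calls of these 3 genes were lost without brd1213 library 2 or 3 and under edgeR.

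Against brm, the mutant in the ATPase of the complex, brd1213 differed far more: 4466 genes were higher (19.2%) and 4610 lower (19.8%), together 39%. By at least 2-fold, 949 were higher (4.07%) and 632 lower (2.71%). BRM itself was at 7.72 ± 6.62 CPM in brm and higher in brd1213 by 4.70 ± 0.38 (limma adjusted p = 9.22e-10). Of the 66 abscisic acid genes 20 were higher in brd1213 and 2 lower. NCED3, at 4.22 ± 1.71 CPM in brm, was higher in brd1213 by 1.32 ± 0.40 (limma adjusted p = 0.00909), and PP2CA, at 20.6 CPM, by 1.07. RD29A, at 96.3 CPM in brm, did not pass the test.

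Many heat shock and wall genes were higher in brd1213 than in brm. Over all tested genes 19.2% were higher and 19.8% lower. Of 32 heat shock genes 16 were higher and 2 lower, HSP90.1 by 1.85 ± 0.28 and HSP70-4 by 1.55 ± 0.24. Of the 10 small heat shock proteins 0 were higher and 1 lower. Of 56 wall genes 22 were higher and 7 lower, and the 19 alpha expansins among them went both ways, with 4 higher and 3 lower. TCH4, at 121 ± 49.9 CPM in brm, was higher in brd1213 by 2.24 ± 0.37 (limma adjusted p = 2.33e-05), and PHI-1 by 2.03 ± 0.40. Of 36 glucosinolate genes 3 were higher and 18 lower, and of 22 flavonoid genes 3 were higher and 15 lower. SEP3 averaged 77.5 CPM in brm and was lower in brd1213 by 1.48 (limma adjusted p = 4.02e-05). STP1, a sugar carrier, was at 246, 304 and 168 CPM in wild type, at 754, 557 and 608 CPM in brd1213 and at 74.5 ± 31.1 CPM in brm. ASN1, an asparagine synthase that sugar starvation induces, was at 54.5 ± 5.18 CPM in brm, lower than the 563, 408 and 433 CPM of brd1213, which overlapped wild type at 451, 619 and 349 CPM.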

How the data were processed

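Total RNA of seedlings was read as single 50-bp reads, per the labels' protocols. HISAT2, edgeR and TAIR10 are named, with no versions, in the submitters' processing notes, which do not describe how reads were counted. The deposited values are a signal with the form of edgeR's pseudo-counts, which the authors' tables give for 32548 genes. CPM is that signal at a common library size of 23089154 reads. Inverting edgeR's adjustment gave whole reads for all but 2 of 1171728 values (tolerance 1e-04).

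The main test was limma 3.58.1 with a trend on log2(value + 1) over all 36 libraries, where a gene's mean value reached 1, so differences of low genes are understated; p-values were adjusted by Benjamini-Hochberg. edgeR 4.0.16 and DESeq2 1.42.0 on the recovered reads were alternatives. Of 648 list members 624 were tested. Named genes are list members, mutated genes, and the 15 largest called changes each way (6 each way against brip12 and brm) with a symbol, separate libraries and a mean log2 CPM of at least 1. The members and lists were chosen with earlier results of these data known. Symbols and gene starts are those of RefSeq's TAIR10.1 annotation, matched by locus tag, and sequences come from RefSeq's TAIR10.1 genome; BRD and BRIP names come from knowledge of the study. Near-identical genes may share reads, and without strand a gene and its antisense partner cannot be told apart.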

Additional observations from a re-analysis of the deposited data

How the results depend on the processing

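Median-ratio scaling, no filter, a filter of 1 CPM in 3 libraries, pseudocounts of 0.1 and 5, edgeR, DESeq2, leaving out each library and the fit of only the 2 genotypes were run for each comparison. No called value changed sign in any of them, and BRD1, BRD2 and BRD13 kept their calls in all. Of 266 called list members and named genes against wild type, 163 kept their call in all alternatives and 103 lost it in at least 1. Against wild type the fit of only the 2 genotypes called 1099 higher and 1447 lower, and a 2-fold threshold left 393 and 652; without single libraries the counts ran from 1684 to 1993 higher and from 1960 to 2221 lower. Against brip12 these were 85 and 59, 107 and 44, and 161 to 510 higher and 73 to 693 lower, and DESeq2 called 493 lower. Against brm the 2-fold threshold left 949 and 632. Fits with fewer libraries have less power by construction; otherwise the cause was not tested. Replicate numbers did not pair brd1213 with wild type: deviations of same-numbered libraries correlated at -0.16, -0.41 and -0.14, and of differently numbered ones at up to 0.42. In brip12, brd1213 library 2 matched its own number best (0.21), while libraries 1 and 3 did not (-0.066 and 0.032). In brm only library 1 did (0.017). Single genes could still follow the number: HSP70-4 was highest in library 2 of wild type, brd1213, brip12 and brm. Whether same-numbered libraries shared a batch was not tested. With the replicate block, 2165 genes rose and 2513 fell against wild type. At 23.1 reads per CPM, genes under 1 CPM rest on few reads, and calls there were rarer.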

Other observations

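Among genes without a symbol, which the naming rule left out, the largest rise and the largest fall were singled out after their values were seen. AT2G01422, a non-coding RNA on chromosome 2, had 1 read in the 3 wild-type libraries together and 813 reads in the 3 brd1213 libraries, at 6.92, 12.8 and 15.69 CPM, with means of 0.0146 CPM in brip12 and 0.140 CPM in brm. AT1G64795, an uncharacterized protein gene on chromosome 1, had 347 reads in wild type, at 5.70, 4.24 and 4.92 CPM, and 5 reads in brd1213. Its mean in brm was 0.0138 CPM.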
